A study of Mus musculus with 6 samples.

Results

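The glycolytic enzymes and hypoxia-responsive genes were compared between colons of NHE3-/- and NHE3+/+ mice. NHE3, the product of Slc9a3, exchanges sodium for protons at the luminal membrane of the gut. Of 34 genes drawn up for the purpose, 14 encode enzymes of glycolysis and 20 encode the oxygen-sensing transcription factors, their regulators or their targets. A gene was read through the Affymetrix probe set of highest mean signal among those whose annotation names that gene alone. By this rule 31 of the 34 had a probe set, of 18193 genes in all. Gpi1, Eno1 and Bnip3l had none and were not analysed here. The probe sets naming Gapdh alone are array controls, which are left out of the test of all probe sets, so Gapdh is described apart. Of the other 30 genes, 29 passed a filter on low signals, set at the 40th percentile of mean log2 values, which is a signal of about 60.2. The exception was the glucose transporter gene Slc2a3.

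There were 3 arrays of NHE3-/- colon and 3 of colon from NHE3+/+ (wild-type) littermates, each hybridised with biotin-labelled cRNA made from total RNA of whole dissected colon. All mice were 6 to 8 weeks old, and no treatment is recorded. The labels give no other allele and do not say which part of Slc9a3 is disrupted, which sex the mice had, or whether each array came from a separate animal. P-values thus speak to the variation among these 6 arrays, part of which may be technical.

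In glycolysis, hexokinase traps glucose in the cell as glucose 6-phosphate, phosphofructokinase commits it to the pathway, and the later steps yield pyruvate, which lactate dehydrogenase turns into lactate. The hypoxia-inducible factors pair an oxygen-regulated alpha subunit (Hif1a or Epas1) with Arnt. In the presence of oxygen, the prolyl hydroxylases Egln1, Egln2 and Egln3 mark the alpha subunit for destruction through the von Hippel-Lindau protein. Where oxygen is short the subunit persists, binds DNA at sites with the core ACGTG or GCGTG, and raises genes of glucose uptake, glycolysis, mitophagy and vessel growth. The luminal surface of the colon lies next to an anaerobic lumen and is known for low oxygen in health.

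Of 27024 probe sets tested across the array, limma called 1342 higher in NHE3-/- colon and 1685 lower (Benjamini-Hochberg adjusted p below 0.05). With the medians of the arrays set equal, the counts were 1592 (5.89%) and 739 (2.73%), and quantile-normalized values gave 1336 (4.94%) and 1333 (4.93%). Over all of them the median log2 fold change was -0.10 as deposited, 0.01 with equal medians and -0.02 with quantile-normalized values, and fold changes below are on the deposited scale. Between pairs of arrays, log2 values correlated at 0.965 to 0.973 within NHE3-/-, at 0.969 to 0.97 within NHE3+/+ and at 0.932 to 0.959 across genotypes. The 2 probe sets of Slc9a3 did not pass the threshold (log2 fold changes -0.42 and 0.76), with the brighter at 5970.4, 4266 and 3665 in NHE3-/- colon, against 5908, 5647 and 6669 in NHE3+/+ colon. Xist, the RNA of the inactive X chromosome, had signals of 2639, 1929 and 12.3 on NHE3-/- arrays 1, 2 and 3, against 4.3, 8 and 2 on the NHE3+/+ arrays. The Y-linked Eif2s3y had 933, 1088 and 1355 on the NHE3-/- arrays, against 1434, 1457 and 1809 on the NHE3+/+ arrays, so NHE3-/- arrays 1 and 2 held both transcripts. Calls lost with NHE3-/- array 3 alone against NHE3+/+ are therefore also given below, from a fit in which the spread comes from the NHE3+/+ arrays only.

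The promoters of 6 genes are shown as examples, and no expression result below depends on them. These are Bnip3 and Egln3, the largest increases here, Hk2, Pgk1 and Ldha, 3 steps of glycolysis, and Car9, a hypoxia target that did not pass the test. Each window runs from 250 bases before to 50 after the annotated start, on the strand of the gene, in RefSeq sequence of mouse GRCm38.p6, and capitals mark ACGTG or its reverse complement CACGT, that is, the motif on either strand. The variant GCGTG was not searched. Ldha has a second annotated window, at a later start, that holds no match, and its first is shown. Where CACGTG occurs, both readings overlap in it.
Bnip3, chr7:138909457-138909756, minus strand: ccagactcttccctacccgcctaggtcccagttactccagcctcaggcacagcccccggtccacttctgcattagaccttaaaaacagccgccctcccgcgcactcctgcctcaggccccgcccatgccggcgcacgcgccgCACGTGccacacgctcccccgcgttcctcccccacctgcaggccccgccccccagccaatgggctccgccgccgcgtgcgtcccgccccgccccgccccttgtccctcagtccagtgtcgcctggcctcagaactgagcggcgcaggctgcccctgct
Egln3, chr12:54203825-54204124, minus strand: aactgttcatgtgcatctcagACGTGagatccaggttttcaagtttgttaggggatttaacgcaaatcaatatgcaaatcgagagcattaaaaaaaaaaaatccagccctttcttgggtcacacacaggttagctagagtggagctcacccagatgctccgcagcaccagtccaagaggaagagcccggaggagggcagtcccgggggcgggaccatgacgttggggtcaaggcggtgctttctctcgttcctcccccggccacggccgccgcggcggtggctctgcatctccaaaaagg
Hk2, chr6:82774405-82774704, minus strand: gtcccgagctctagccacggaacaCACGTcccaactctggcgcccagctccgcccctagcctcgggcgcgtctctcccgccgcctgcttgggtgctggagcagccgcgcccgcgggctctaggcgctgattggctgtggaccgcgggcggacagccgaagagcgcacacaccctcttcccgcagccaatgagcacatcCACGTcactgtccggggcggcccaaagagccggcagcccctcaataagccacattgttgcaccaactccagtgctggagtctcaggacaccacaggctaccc
Pgk1, chrX:106186850-106187149, plus strand: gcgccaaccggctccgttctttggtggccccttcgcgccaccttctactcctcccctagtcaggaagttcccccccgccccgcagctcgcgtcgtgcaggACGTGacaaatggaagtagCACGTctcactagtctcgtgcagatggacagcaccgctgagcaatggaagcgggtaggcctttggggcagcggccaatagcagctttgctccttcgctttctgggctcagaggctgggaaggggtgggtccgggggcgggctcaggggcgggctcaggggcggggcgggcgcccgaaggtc
Ldha, chr7:46845554-46845853, plus strand: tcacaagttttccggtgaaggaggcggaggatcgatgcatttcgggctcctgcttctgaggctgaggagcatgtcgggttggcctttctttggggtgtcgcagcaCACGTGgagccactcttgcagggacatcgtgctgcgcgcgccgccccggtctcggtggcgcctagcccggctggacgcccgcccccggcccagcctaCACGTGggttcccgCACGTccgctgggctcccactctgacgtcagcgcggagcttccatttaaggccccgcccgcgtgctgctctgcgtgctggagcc
Car9, chr4:43506776-43507075, plus strand: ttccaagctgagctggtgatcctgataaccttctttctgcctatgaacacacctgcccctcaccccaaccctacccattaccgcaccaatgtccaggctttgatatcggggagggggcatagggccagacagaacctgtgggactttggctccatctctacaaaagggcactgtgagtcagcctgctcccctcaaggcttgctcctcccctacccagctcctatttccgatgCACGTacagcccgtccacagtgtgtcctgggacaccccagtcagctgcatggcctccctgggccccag

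Of the 34 genes, 30 have at least 1 such window in the table used, and 22 of them (73.3%) hold ACGTG on either strand in 1 window or more. The same letters occur in 21.8% of all 27025 genes with a window and in 23.2% of the 17491 protein-coding ones. Among genes that rose in NHE3-/- colon (below) 10 of 13 with a window hold it, and among tested genes that did not pass the threshold 11 of 13. The windows shown above all hold it, while those of Pfkp, Tpi1 and Adm, which rose, do not. The motif letters only describe these windows, and many of these genes are textbook HIF targets.

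The enzymes of glycolysis were mostly higher in NHE3-/- colon. Of 11 tested, 8 rose, 1 fell and 2 did not pass the threshold (limma, adjusted p below 0.05). Over all probe sets tested 4.97% were called higher and 6.24% lower, over 12552 genes read by the same rule 6.42% and 7.55%, and over those of them with a mean signal of at least 1000 14.2% and 9.13%. The median log2 fold change of the 11 was 0.65, and 10 of the 11 values were above 0. The median was -0.10 over all probe sets tested, -0.07 over genes read by the same rule and 0.02 over those with a mean signal of at least 1000. The rises ran through the pathway, from hexokinase 2 and the platelet-type phosphofructokinase to lactate dehydrogenase A, and each was between 1.44-fold and 2.54-fold. Fitted without a mean-variance trend, Hk2, Pfkfb3, Pgk1 and Pgam1 made up the 4 enzymes called higher and 0 were called lower, against 1.89% and 2.06% of all probe sets.

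At the entry of the pathway, the hexokinases differed. Hk2, the inducible hexokinase that docks on mitochondria, had signals of 8428, 11079 and 11207 in NHE3-/- colon, against 4528, 4490.3 and 5487 in NHE3+/+ colon. All NHE3-/- arrays lay above all NHE3+/+ arrays, and the log2 fold change was 1.07 (SE 0.13, adjusted p = 0.00066). Hk1, the hexokinase of most tissues, had 4641 ± 598 in NHE3-/- colon and 4308 ± 560.0 in NHE3+/+ colon (SD, n = 3 each) through its brightest probe set. That difference did not pass (log2 fold change 0.11, 95% interval -0.17 to 0.39). A dimmer Hk1 probe set had 3283, 3243 and 3546 in NHE3-/- colon, against 2247, 2212 and 1969.8 in NHE3+/+ colon, and did pass (log2 fold change 0.64, SE 0.11, adjusted p = 0.00365). The Hk1 probe sets thus disagreed, and their mean log2 value gave a log2 fold change of 0.37 (adjusted p = 0.0327).

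At the phosphofructokinase step the isozymes moved in opposite directions. Pfkp, the platelet type, had 2876, 3589 and 5328 in NHE3-/- colon, against 2383, 1903.5 and 2266 in NHE3+/+ colon. Every NHE3-/- array was above every NHE3+/+ array, with array 3 the highest, and the log2 fold change was 0.80 (SE 0.19, adjusted p = 0.023). Pfkl, the liver type, had 4217, 3883 and 3760.0 in NHE3-/- colon, against 4839.9, 5629 and 5357 in NHE3+/+ colon. It was the enzyme that fell (log2 fold change -0.41, SE 0.10, adjusted p = 0.0277), and again the groups did not overlap.

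The opposite calls of Pfkp and Pfkl depended on single arrays. Without NHE3-/- array 3, Pfkp had a log2 fold change of 0.56 (adjusted p = 0.0504). Without NHE3+/+ array 2 or 3 it had 0.70 (adjusted p = 0.0931) and 0.83 (adjusted p = 0.0561). Pfkl kept its direction but not its call without NHE3-/- array 2 (-0.40) or 3 (-0.38), without NHE3+/+ array 2 (-0.36) or 3 (-0.40), and with equal medians (-0.29, adjusted p = 0.199). With NHE3-/- array 3 alone Pfkl had -0.48 (adjusted p = 0.103). The difference between the isozymes' changes was not tested.

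Pfkfb3 makes fructose 2,6-bisphosphate, the strongest activator of phosphofructokinase, and had the largest rise among the enzymes. Its signals were 225.1, 331.7 and 254.5 in NHE3-/- colon, against 70.8, 108.5 and 82.7 in NHE3+/+ colon. The groups were well apart but dim, and the log2 fold change was 1.34 (SE 0.24, adjusted p = 0.00608). A second, dimmer probe set of Pfkfb3 gave 0.25 (adjusted p = 0.502). With NHE3-/- array 3 alone Pfkfb3 kept its size (1.28) but not its call (adjusted p = 0.0789).

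In the middle of the pathway, aldolase A, which splits the phosphorylated hexose, was read by 5 probe sets. The brightest had 21954 ± 2962 in NHE3-/- colon and 18796 ± 2331 in NHE3+/+ colon (SD, n = 3 each), with overlapping groups (log2 fold change 0.22, adjusted p = 0.28). The 5 values of Aldoa ran from 0.12 to 0.39, and 1 of them passed. Tpi1, triose phosphate isomerase, had 19698, 19438 and 21691 in NHE3-/- colon, against 13926, 13016 and 13536 in NHE3+/+ colon. The arrays within a genotype were close together and the genotypes apart, and the log2 fold change was 0.59 (SE 0.09, adjusted p = 0.00298). Its 3 probe sets all rose, by 0.54 to 0.63.

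Gapdh, the enzyme of the step after triose phosphate isomerase and a common loading control, was read by 3 array controls along its transcript. The brightest, at the 5' end, had 36296, 38008 and 44772 in NHE3-/- colon, against 28946, 30723 and 24362 in NHE3+/+ colon. In a fit with these controls added after the data were seen, its log2 fold change was 0.50 (SE 0.12, adjusted p = 0.0215). The middle control had 0.44 (adjusted p = 0.0344) and the 3' control 0.40 (adjusted p = 0.0563). The NHE3-/- arrays were above the NHE3+/+ arrays at all 3 positions. The ratio of 3' to 5' signal, a measure of RNA integrity, was 0.741 to 0.781 in NHE3-/- colon and 0.729 to 0.883 in NHE3+/+ colon. Its part in the result was not tested.

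The steps that yield ATP rose. Pgk1, phosphoglycerate kinase, had 15257, 15649 and 18000.0 in NHE3-/- colon, against 9659.8, 8884 and 8558 in NHE3+/+ colon. This was the smallest adjusted p among the enzymes (log2 fold change 0.85, SE 0.10, adjusted p = 0.000563), and all 3 of its probe sets rose. Pgk1 lies on the X chromosome, and its highest signal was on NHE3-/- array 3, the array of that group with little Xist. With that array alone its log2 fold change was 0.99 and it kept its call, as it did under every other alternative run. Pkm, pyruvate kinase of muscle and dividing cells, had 15764, 16798 and 19456 in NHE3-/- colon, against 9391.5, 11309 and 11097 in NHE3+/+ colon (log2 fold change 0.71, SE 0.11, adjusted p = 0.00327). The Pkm groups did not overlap, and its single probe set does not separate the M1 and M2 splice forms here.

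Pgam1, phosphoglycerate mutase, had 7732, 7224 and 8588 in NHE3-/- colon, against 5143, 4790.0 and 5012 in NHE3+/+ colon. It also rose without overlap (log2 fold change 0.65, SE 0.10, adjusted p = 0.00266). Ldha, which reduces pyruvate to lactate, had 26619, 25976 and 35641 in NHE3-/- colon, against 19544, 21045 and 20143 in NHE3+/+ colon. NHE3-/- array 3 stood well above arrays 1 and 2, and the log2 fold change was 0.52 (SE 0.12, adjusted p = 0.0222). The call of Ldha was lost without NHE3+/+ array 1 (0.50, adjusted p = 0.0629), 2 (0.55, adjusted p = 0.0525) or 3 (0.52, adjusted p = 0.0673), but its direction was kept. Glycolytic transcripts have many processed copies in the mouse genome, and whether any of these probe sets reads them was not tested. In whole tissue, more cells of a type and more RNA per cell cannot be told apart.

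**Figure D1:**
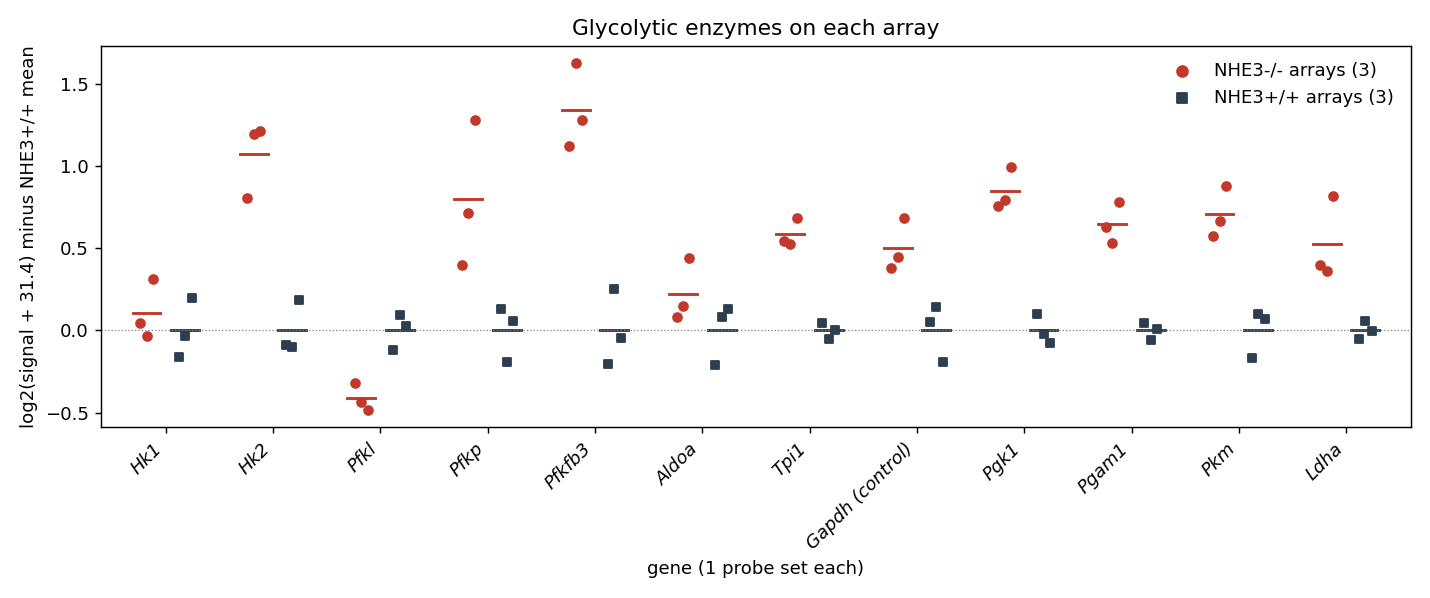
Signal of 11 glycolytic enzymes and of the 5' Gapdh control on each array, as log2(signal + 31.4) minus the NHE3+/+ mean of the gene. Red circles are the 3 NHE3-/- arrays, dark squares the 3 NHE3+/+ arrays and bars group means. NHE3-/- arrays lie above all NHE3+/+ arrays for 8 of the 11 enzymes and the Gapdh control, below them for Pfkl, and overlap them for Hk1 and Aldoa.

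Among the 18 tested HIF subunits and hypoxia targets, 6 rose, 0 fell and 12 did not pass the threshold, against 4.97% of all probe sets higher and 6.24% lower (limma). Over genes read by the same rule the shares were 6.42% and 7.55%, and over those with a mean signal of at least 1000 14.2% and 9.13%. At an unadjusted p below 0.05 (limma), 8 of the 18 were higher and 1 lower. The share of all probe sets at that looser threshold is not given here, so these counts have no background beside them. The median log2 fold change of the 18 was 0.32, and 16 of them had values above 0. Over genes read by the same rule the median was -0.07, and over those with a mean signal of at least 1000 it was 0.02. The increases were those of both HIF alpha subunits, of 1 prolyl hydroxylase and of Bnip3, Ddit4 and Adm. Several of the best known targets, among them Vegfa, Car9, Slc2a1 and Pdk1, did not pass through their brightest probe sets.

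Both oxygen-regulated subunits were higher at the level of RNA. Hif1a had signals of 8187, 8945 and 10059.6 in NHE3-/- colon, against 5387, 5376 and 6101 in NHE3+/+ colon. The groups were separate, and the log2 fold change was 0.68 (SE 0.11, adjusted p = 0.00299), and 3 of the 4 Hif1a probe sets rose. Epas1, which encodes HIF-2 alpha, had 5835.5, 7409.9 and 6393 in NHE3-/- colon, against 4480.4, 4768 and 5086 in NHE3+/+ colon. The change was smaller (log2 fold change 0.45, SE 0.11, adjusted p = 0.0286), while a dimmer Epas1 probe set had 0.75 (adjusted p = 0.0109).

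The Epas1 call was less firm than that of Hif1a. It was lost without NHE3-/- array 2 (0.35, adjusted p = 0.093) or 3 (0.46, adjusted p = 0.0647), without NHE3+/+ array 1 (0.40, adjusted p = 0.0745) or 2 (0.45, adjusted p = 0.0793), and after quantile normalization (0.34, adjusted p = 0.0698). The Hif1a call held in each fit that left out an array. HIF activity is set mostly through the stability of the protein, which arrays do not measure.

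The prolyl hydroxylases differed from each other. Egln3, which is itself a strong HIF target, had 5031, 4054.5 and 4729.7 in NHE3-/- colon, against 1053, 1631 and 1703.5 in NHE3+/+ colon. That is a 3.16-fold difference with no overlap (log2 fold change 1.66, SE 0.17, adjusted p = 0.000211), and the second Egln3 probe set had 1.30. Egln1, the main oxygen sensor of most cells, had 1517 ± 94.9 in NHE3-/- colon and 1314 ± 54.4 in NHE3+/+ colon (SD, n = 3 each). Its log2 fold change of 0.20 did not pass (95% interval -0.05 to 0.45, adjusted p = 0.275), although all NHE3-/- arrays were the higher ones.

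Bnip3, a receptor on mitochondria that starts their removal by autophagy, had the largest difference of all 29 tested genes. Its signals were 3162, 1966 and 3147 in NHE3-/- colon, against 561, 714 and 626 in NHE3+/+ colon. The lowest NHE3-/- array was far above the highest NHE3+/+ array, a 4.12-fold difference (log2 fold change 2.04, SE 0.18, adjusted p = 8.28e-05). Ddit4, an inhibitor of mTORC1 signalling under low oxygen and energy stress, had 3342, 2868 and 3260.1 in NHE3-/- colon, against 1611.5, 1675 and 1606 in NHE3+/+ colon. The NHE3+/+ values were nearly identical, and the log2 fold change was 0.94 (SE 0.11, adjusted p = 0.000425).

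Adm encodes adrenomedullin, a peptide that widens vessels. Its signals were 763, 825.5 and 594 in NHE3-/- colon, against 344, 258 and 291 in NHE3+/+ colon. The groups did not overlap (log2 fold change 1.20, SE 0.18, adjusted p = 0.00202), and the second Adm probe set rose as well, by 0.91. With NHE3-/- array 3 alone, which had the lowest of the NHE3-/- signals, Adm had 0.93 (adjusted p = 0.0683). Bnip3, Egln3, Ddit4 and Hif1a kept their calls in that fit.

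**Figure D2:**
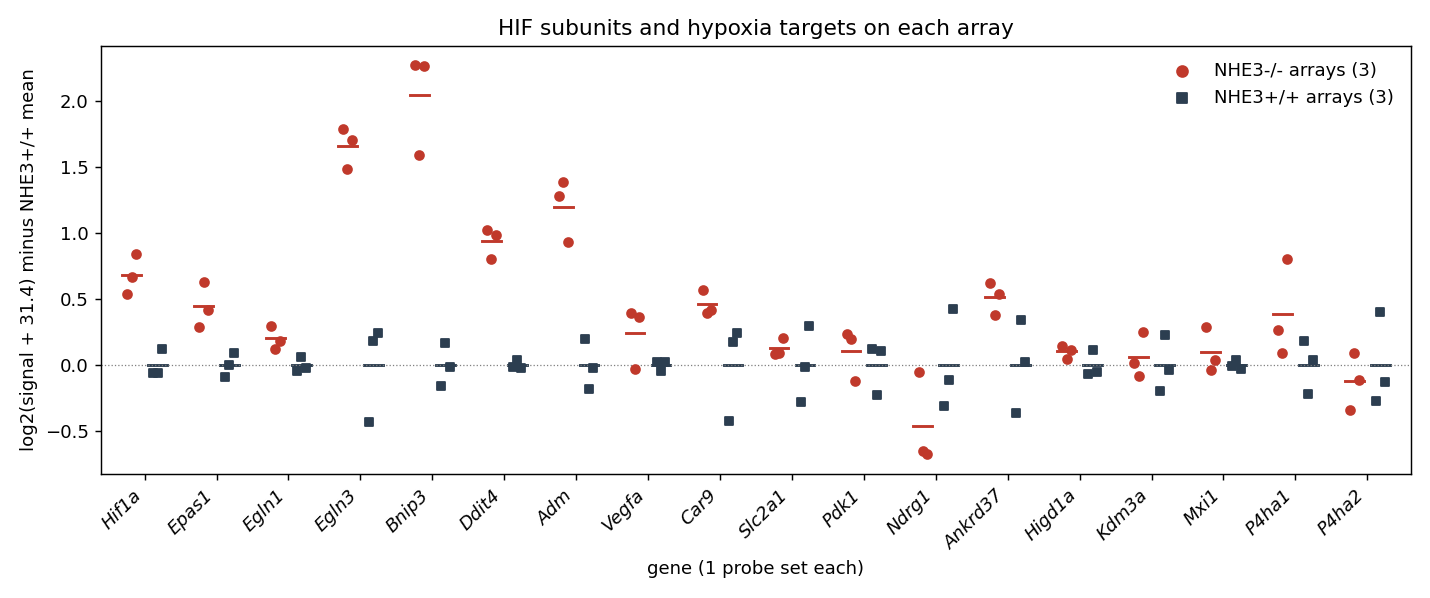
Signal of the 18 tested HIF subunits and hypoxia targets on each array, as log2(signal + 31.4) minus the NHE3+/+ mean of the gene. Red circles are the 3 NHE3-/- arrays, dark squares the 3 NHE3+/+ arrays and bars group means. The NHE3-/- arrays of Bnip3 and Egln3 stand farthest above the NHE3+/+ arrays, while those of Slc2a1, Pdk1, Higd1a, Kdm3a and Mxi1 overlap them.

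Other targets had small or uncertain differences. Vegfa, the main growth factor of vessels, had 907, 669 and 889.5 in NHE3-/- colon, against 695, 661 and 695 in NHE3+/+ colon, through its brightest probe set. NHE3-/- array 2 lay among the NHE3+/+ arrays, and the log2 fold change of 0.24 did not pass (95% interval -0.09 to 0.57, adjusted p = 0.321). The dimmer Vegfa probe set had 507.5, 375 and 571 in NHE3-/- colon, against 257, 224 and 301 in NHE3+/+ colon, with no overlap. That probe set passed (log2 fold change 0.81, SE 0.20, adjusted p = 0.0251), and so did the mean of both (0.53, adjusted p = 0.0443).

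Car9, the carbonic anhydrase on the surface of hypoxic cells, had 2694, 2381 and 2417 in NHE3-/- colon, against 1339, 2041.5 and 2135 in NHE3+/+ colon. All NHE3-/- arrays were above all NHE3+/+ arrays, but NHE3+/+ array 1 was far below the others of its group. The log2 fold change of 0.46 did not pass as deposited (SE 0.16, adjusted p = 0.0966), and it passed with equal medians (0.58, adjusted p = 0.0454). Ankrd37, an ankyrin-repeat protein gene that responds strongly to HIF-1, had 831 ± 74.7 in NHE3-/- colon and 583 ± 147 in NHE3+/+ colon (SD, n = 3 each). It behaved in the same way, with 0.51 (adjusted p = 0.0943) as deposited and 0.63 (adjusted p = 0.0475) with equal medians.

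Glucose entry showed no call through the brightest probe set. Slc2a1, the basal glucose transporter GLUT1, had 8118, 8152 and 8821 in NHE3-/- colon, against 6291, 7566 and 9423.5 in NHE3+/+ colon. NHE3+/+ arrays lay on both sides of the NHE3-/- arrays, and the log2 fold change was 0.13 (95% interval -0.17 to 0.43, adjusted p = 0.591). Of the other Slc2a1 probe sets, 1 had 0.15 and the dimmest passed with 0.44 (adjusted p = 0.0412). Slc2a3, the high-affinity transporter GLUT3, was below the filter, at 58.6, 6 and 6.5 in NHE3-/- colon and at 41.3, 126.7 and 62.3 in NHE3+/+ colon. Pdk1, the kinase that keeps pyruvate out of mitochondria by inhibiting pyruvate dehydrogenase, had 1020.0 ± 137 in NHE3-/- colon and 947 ± 129 in NHE3+/+ colon (SD, n = 3 each). Its 3 tested probe sets had log2 fold changes of 0.10 to 0.30, none past the threshold.

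Ndrg1, a stress-responsive gene of differentiating epithelium, was the listed target with the lowest value. It had 5284, 3482 and 3424 in NHE3-/- colon, against 4415, 5078 and 7358 in NHE3+/+ colon. NHE3-/- array 1 lay among the NHE3+/+ arrays, and the log2 fold change of -0.46 did not pass (95% interval -0.90 to -0.02, adjusted p = 0.167). All 5 Ndrg1 probe sets were below 0, from -0.66 to -0.24, and the lowest of them passed (adjusted p = 0.0444).

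The remaining 5 genes did not pass. Their log2 fold changes were 0.10 for Higd1a, a protein of the mitochondrial inner membrane, 0.06 for the histone demethylase Kdm3a and 0.10 for the MYC antagonist Mxi1. The collagen prolyl hydroxylase subunits P4ha1 and P4ha2 had 0.39 and -0.12. The 95% interval of Higd1a ran from -0.10 to 0.31, while that of the dim P4ha2 ran from -0.77 to 0.53. Higd1a was the 1 gene whose probe sets split in sign, since a dimmer one fell (-0.46, adjusted p = 0.0406).

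**Figure D3:**
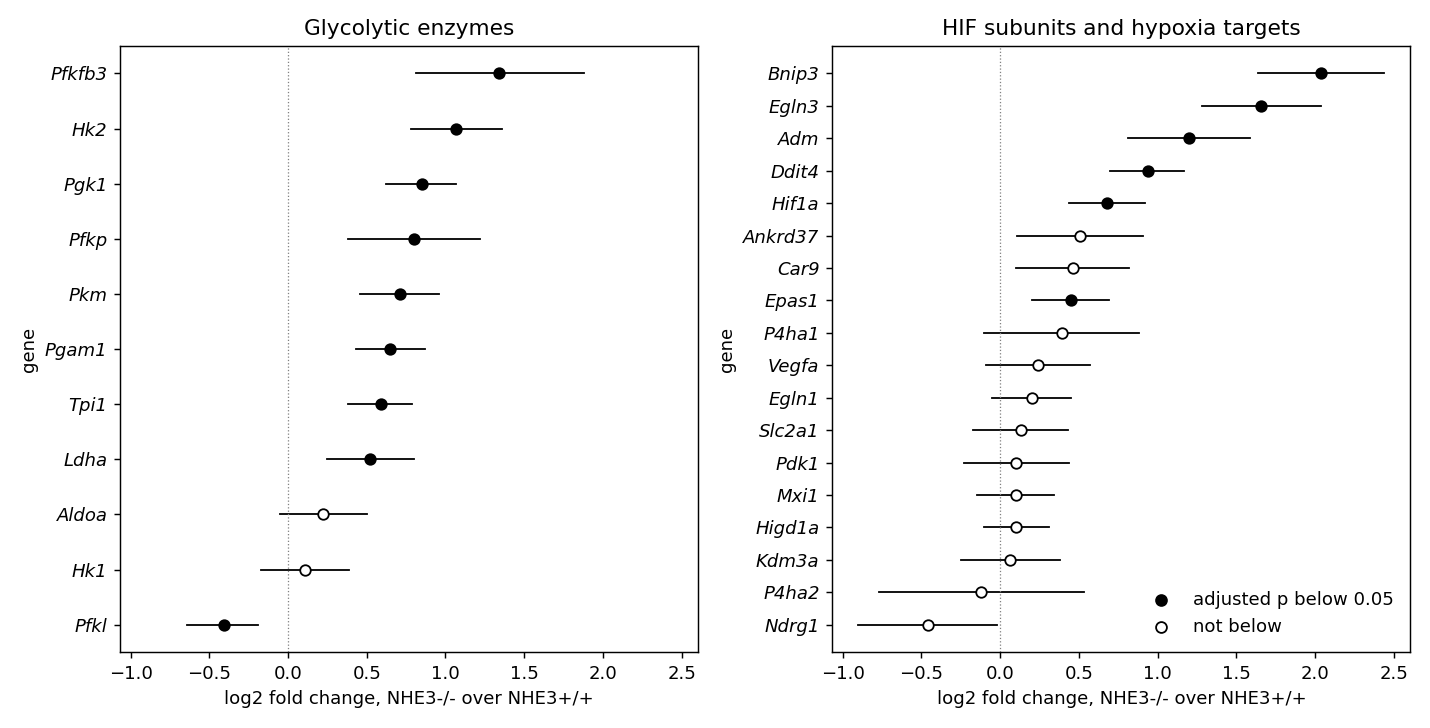
Log2 fold change of NHE3-/- over NHE3+/+ colon for the 29 tested genes, 1 probe set each, glycolytic enzymes on the left and HIF subunits and targets on the right. Lines are 95% intervals of the limma fit, filled points have an adjusted p below 0.05, and the values run from -0.46 (Ndrg1) to 2.04 (Bnip3).

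Within each list, the median difference from the NHE3+/+ mean was higher on every NHE3-/- array than on any NHE3+/+ array. The NHE3+/+ medians lie near 0 by construction, since those arrays make up that mean. The median over the 11 enzymes of the log2 difference from the NHE3+/+ mean was 0.55, 0.53 and 0.82 on NHE3-/- arrays 1, 2 and 3, against -0.09, -0.02 and 0.02 on the NHE3+/+ arrays. For the 18 HIF subunits and targets it was 0.29, 0.16 and 0.39 on the NHE3-/- arrays, against -0.08, 0.04 and 0.02 on the NHE3+/+ arrays. NHE3-/- array 3 was the highest in both lists, and with it alone 7 enzymes and 4 targets were called higher and 0 lower, against 2.84% of all probe sets higher and 4.69% lower in that fit. Epas1 was at 0.42 there (adjusted p = 0.14). For 17 of the 29 genes every NHE3-/- array was above every NHE3+/+ array, which held for 12.2% of all probe sets tested. The reverse order held for Pfkl, against 20.1% of all probe sets tested.

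More than 1 probe set was tested for 19 of the 29 genes. Over all 63 tested probe sets of the 29 genes 28 rose and 3 fell, beside 4.97% higher and 6.24% lower of all probe sets. Probe sets of a gene share its RNA and are not independent. For Tpi1, Pgk1, Epas1, Egln3 and Adm every tested probe set rose. For Hk1, Aldoa, Vegfa and Slc2a1 a dimmer probe set passed where the brightest did not, in the same direction, higher in NHE3-/- colon, and for Ndrg1 likewise but lower.

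**Figure D4:**
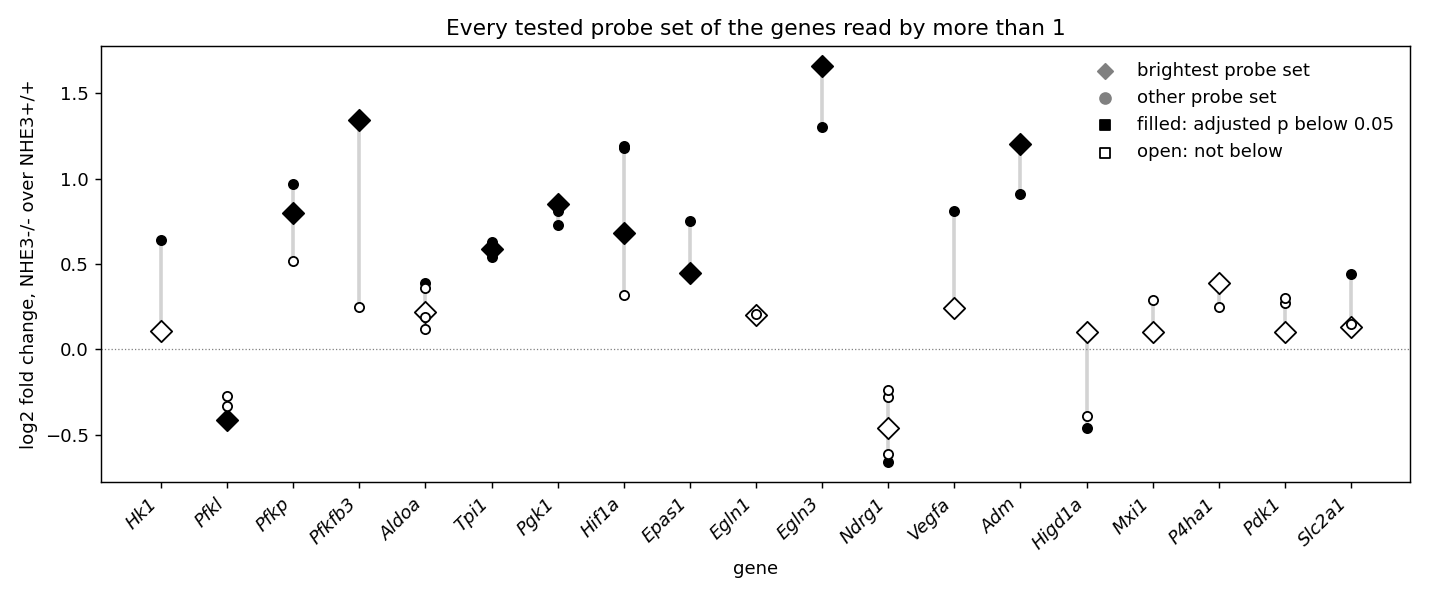
Log2 fold change of every tested probe set of the 19 genes read by more than 1, for NHE3-/- over NHE3+/+ colon. Diamonds are the brightest probe set of a gene, circles the others, and filled symbols have an adjusted p below 0.05. Probe sets of Tpi1, Pgk1 and Adm lie together, those of Pfkfb3 (0.25 and 1.34) and Hif1a (0.32 to 1.19) are spread, and those of Higd1a lie on both sides of 0.

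Other genes of the same pathways were read from a list of 83 that does not overlap these 34. Of 67 tested, 11 rose and 6 fell, against 6.42% higher and 7.55% lower over all genes read by the same rule. Over those with a mean signal of at least 1000 the shares were 14.2% and 9.13%. The median log2 fold change of the 67 was 0.14, against -0.07 over genes read by the same rule and 0.02 over the brighter ones. Among 29 isozymes and genes of flux control, 6 rose and 2 fell. The largest was Eno3, the enolase known from muscle, at 9805, 13691 and 16345 in NHE3-/- colon, against 2945, 4215 and 2936 in NHE3+/+ colon. Its groups were far apart (log2 fold change 1.96, SE 0.19, adjusted p = 0.00013). Rises were also called for Aldoc, aldolase C (0.70), Pklr, the pyruvate kinase of liver and red cells (0.66), Pdk4, a pyruvate dehydrogenase kinase induced by fasting (1.27), Pgm2, a phosphoglucomutase (0.57), and Ugp2, which makes UDP-glucose (0.38).

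The falls in that group were Slc16a1, the lactate and butyrate transporter MCT1 (-0.33), and Pygl, glycogen phosphorylase (-1.07). Slc16a3, the lactate exporter MCT4, had 0.79 (adjusted p = 0.0687), which did not pass, and gained a call in 4 alternatives, such as equal medians (0.90, adjusted p = 0.0352). Of these calls Eno3 held in every alternative run, while Pdk4 (0.78 to 1.78), Ugp2 (0.12 to 0.50) and Slc16a1 (-0.49 to -0.21) lost theirs in most of 18. Aldoc (0.09 to 0.87), Pgm2 (0.43 to 0.69) and Pygl (-1.58 to -0.83) lost theirs in 4 or 5. With NHE3-/- array 3 alone the calls of Aldoc (0.86, adjusted p = 0.0621), Pklr (0.72, adjusted p = 0.0641), Pgm2 (0.59, adjusted p = 0.109), Pdk4 (1.37, adjusted p = 0.166), Ugp2 (0.47, adjusted p = 0.0978) and Slc16a1 (-0.28, adjusted p = 0.272) were lost. Aldoc had 0.09 as the mean over its probe sets. The dim glucose transporter gene Slc2a4 had 1.00 (SE 0.31, adjusted p = 0.0609), which did not pass, with every NHE3-/- array above every NHE3+/+ array. It stayed without a call in 13 of 18 alternatives (0.67 to 1.57) and gained one in the others, such as equal medians (1.11, adjusted p = 0.0229). Slc2a5 had 0.03, and Slc2a2 was below the filter.

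Of 12 tested components of the HIF pathway 0 passed the threshold (limma), Arnt, Vhl, Egln2 and Hif1an among them, with log2 fold changes from -0.35 for Vhl to 0.50 for Hif3a. At an unadjusted p below 0.05, 0 were higher and 1 lower, again without a share of all probe sets at that threshold. The interval of Vhl, whose product directs hydroxylated HIF to destruction, was -0.72 to 0.02. Of the 13 listed components, Rbx1 was below the filter on low signals and was not tested. Its signals were 21.1, 17.9 and 7.9 in NHE3-/- colon, against 117.2, 122.4 and 96.2 in NHE3+/+ colon, with no overlap. Among 26 other hypoxia-inducible genes 5 rose and 4 fell, beside the 6.42% higher and 7.55% lower of all genes. Of genes with a mean signal of at least 1000, 14.2% were higher and 9.13% lower. Ak4, an adenylate kinase of mitochondria, rose by 1.51 (SE 0.20, adjusted p = 0.000934), at 1184.5, 1329 and 1463 in NHE3-/- colon, against 313, 494 and 564 in NHE3+/+ colon. Nt5e, which makes adenosine at the cell surface, rose by 1.15 (SE 0.16), Ero1a, an oxidase of the endoplasmic reticulum, by 0.87 (SE 0.12), and Angptl4 (1.14, SE 0.33) and Ccng2 (0.62, SE 0.16) were called higher too. The falls were those of Cxcr4 (-1.39), a chemokine receptor, Edn1 (-1.07), the vessel-narrowing peptide endothelin 1, Stc2 (-0.84), stanniocalcin 2, and Ckb (-0.77), creatine kinase B. Ak4, Nt5e, Ero1a and Edn1 kept their calls in all 18 alternatives. Angptl4, whose groups overlapped (703, 445 and 326 in NHE3-/- colon, against 139, 154 and 339 in NHE3+/+ colon), kept its call in 8 of 18 (0.49 to 1.49) and lost it with NHE3-/- array 3 alone (0.65, adjusted p = 0.412). Stc2 also kept its call in 8 (-0.99 to -0.66) and lost it with that array alone (-0.68, adjusted p = 0.228). Ccng2 kept its call in 11 (0.44 to 1.01), Ckb in 13 (-1.01 to -0.61) and Cxcr4 in 16 (-2.09 to -0.98).

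The number called in this wider list fell when some arrays were left out, and so did that over all probe sets. Over all probe sets, 1342 higher became 940 without NHE3-/- array 1, 839 without NHE3-/- array 3 and 925 without NHE3+/+ array 2. The 1685 lower became 832 without NHE3-/- array 3, 843 without NHE3+/+ array 2 and 775 without NHE3+/+ array 3. In the wider list, 7 were higher without NHE3-/- array 1 or 3 or without NHE3+/+ array 2. Its lower genes numbered 3 without NHE3-/- array 3, 1 without NHE3+/+ array 2 and 2 without NHE3+/+ array 3. With NHE3-/- array 3 alone 5 were higher and 4 lower.

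**Figure D5:**
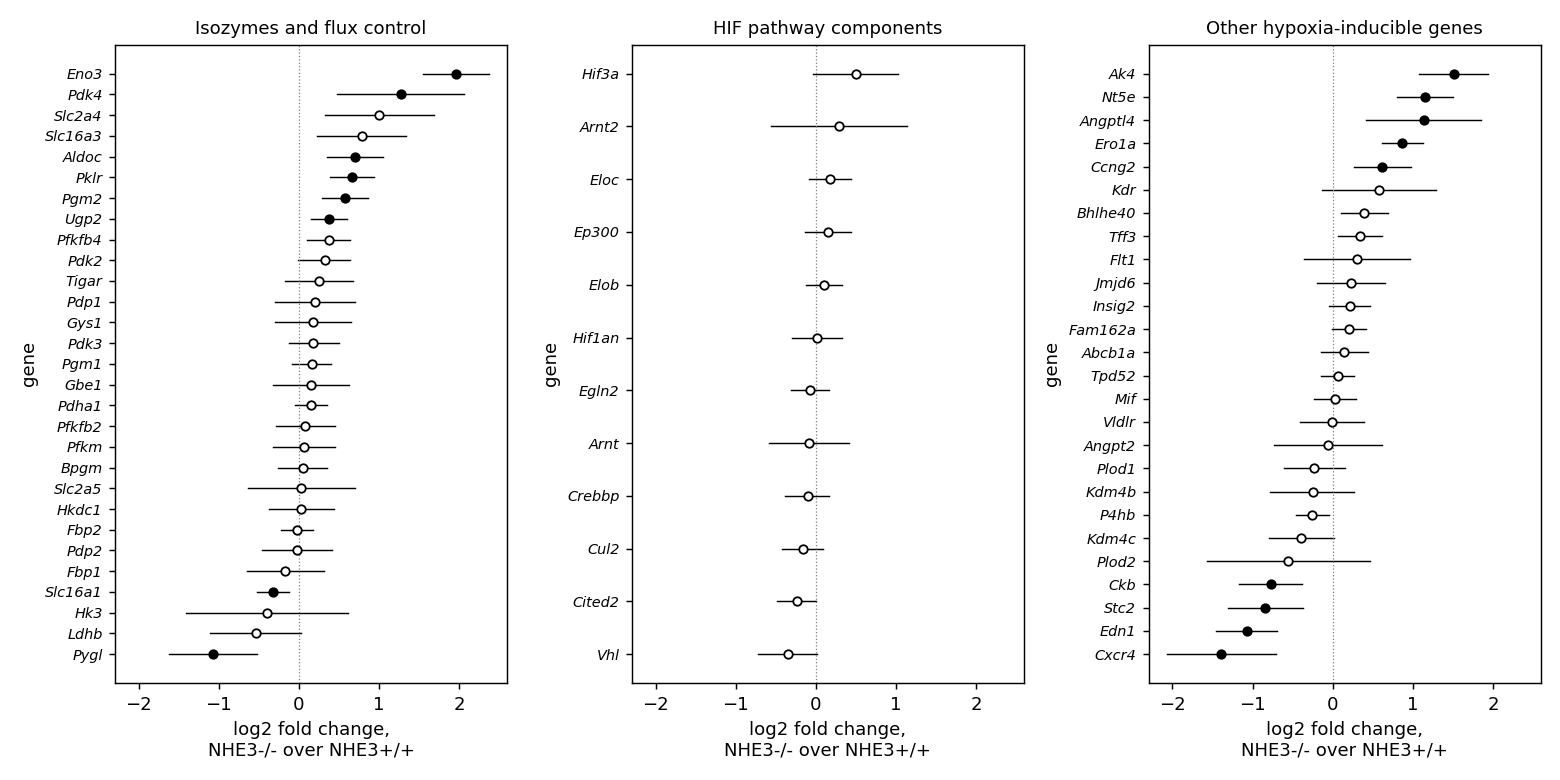
Log2 fold change of NHE3-/- over NHE3+/+ colon for 67 further genes of glycolysis and of the hypoxia response, in 3 lists. Lines are 95% intervals of the limma fit and filled points have an adjusted p below 0.05, from Cxcr4 (-1.39) to Eno3 (1.96), with no filled point among the HIF pathway components.

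Markers of the cells that whole colon can hold were set beside these results. Summed signals of 8 markers of colon epithelium were 197655 to 244904 on NHE3-/- arrays and 171001 to 218874 on NHE3+/+ arrays, with Vil1 (0.41) and Slc26a3 (0.72) higher and Cdx2 (-0.58) lower. Of 7 markers of dividing cells 5 fell, against 7.55% of all genes lower, with a median log2 fold change of -0.73, and their sums were 9083 to 10845 in NHE3-/- colon, against 11674 to 15623 in NHE3+/+ colon. Smooth muscle markers summed to 1325 to 2628 in NHE3-/- colon and to 1728 to 2012 in NHE3+/+ colon, while endothelial markers summed to 761 to 945 in NHE3-/- colon and to 661 to 962 in NHE3+/+ colon. Of these, 6 of 8 smooth muscle and 5 of 8 endothelial markers passed the filter on low signals and 0 were called (limma), nor were any at an unadjusted p below 0.05, and the muscle markers Cnn1 and Lmod1 and the endothelial markers Pecam1, Cdh5 and Tie1 were below it. Adipose markers summed to 3317 to 3585 in NHE3-/- colon and 2872 to 4815 in NHE3+/+ colon, with Adipoq (-1.77) and Fabp4 (-2.08) lower and Cidec (0.97) higher. Pnpla2 was the brightest of them on every array, at 2922, 2509 and 2928 in NHE3-/- colon, against 1868, 2035 and 2447 in NHE3+/+ colon. The adipose sum thus follows Pnpla2 more than Adipoq. Macrophage and neutrophil markers summed to 3347 to 5969 in NHE3-/- colon and 2264 to 5101 in NHE3+/+ colon, with S100a8 (4.20) higher. S100a8 had 3034, 718 and 1356 in NHE3-/- colon, against 59, 46.2 and 41.2 in NHE3+/+ colon, and adds to the NHE3-/- sums. The other tested markers of that list were not called, with Adgre1 at 0.46, Csf1r at -0.13, Cd68 at -0.32 and Lyz2 at -0.44. Red cell markers summed to 115 to 302 in NHE3-/- colon and 102 to 298 in NHE3+/+ colon. Of these last lists, 4 of 8 adipose, 5 of 8 macrophage and neutrophil and 1 of 6 red cell markers were tested. The part of these markers in the results was not tested.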

How the data were processed

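RNA of whole colon was measured on 6 Affymetrix MOE430 2.0 arrays, 3 per genotype. The authors deposited a linear intensity (signal) for each probe set. The software was GCOS of Affymetrix, per the submitters' processing notes. Its settings are not given in the sources used here. Leaving out 2% of values at each end, every array averaged 500, which is what scaling to a common target gives, though no source records that step. Array medians were 97.8 to 121.4. No centring was seen, and single-label arrays have no ratio direction. From these, values were turned into log2(signal + 31.4). The added constant is the 25th percentile of the table and understates changes of dim genes. Array controls (64) and probe sets below the 40th percentile of mean log2 value were dropped, leaving 27024 of 45101. Genotypes were compared with limma 3.58.1 in R 4.3.3 (lmFit, eBayes with a trend, two-sided), with Benjamini-Hochberg adjustment and a threshold of 0.05. SE and intervals are limma's. The fit was run on simulated data whose noise did not depend on signal, so the choice of a mean-variance trend was not tested there. The number of arrays limits the precision, and no read depth applies.

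Genes were named from GEO's platform annotation (1 gene for 34958 probe sets, several for 932, none for 9211), and promoters from RefSeq (GRCm38.p6). The members and lists were chosen with earlier results of these data known. The rule for names took all 34 members, with every array's value for members past the threshold and for Hif1a, Epas1, Vegfa, Car9, Slc2a1, Hk2, Pkm and Ldha, and other pathway genes past the threshold. Values of further members, probe sets and genes not called were added after they were seen. Alternatives were scaling, pseudocounts of 16 and 100, no filter, no trend, a replicate block, leaving out each array, NHE3-/- array 3 alone, an Xist covariate and other choices of probe set.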

Additional observations from a re-analysis of the deposited data

How the results depend on the processing

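Over the alternatives, none of the 522 values of the 29 tested genes turned a call to the opposite direction: 485 stayed on their side of the threshold, 33 lost a call and 4 gained one. Bnip3 (1.93 to 2.27), Egln3 (1.44 to 1.78), Ddit4 (0.89 to 1.06), Hk2 (0.93 to 1.25), Pgk1 (0.66 to 1.00) and Pgam1 (0.52 to 0.79) kept their calls in all 18 alternatives each, of which the fit with the Gapdh controls was chosen after seeing the data. That fit called 1342 probe sets higher and 1685 lower, as the main fit did. Taking the probe set of highest mean log2 value reused the main fit, so it could change only genes given another probe set. Agreement in these alternatives therefore says little. The 8 enzymes called higher were 4 without a mean-variance trend, and 6 to 8 when an array was left out. Without a trend (limma), the enzymes that lost a higher call were Tpi1 (adjusted p = 0.0534), Pkm (0.0523), Pfkp (0.107) and Ldha (0.116). Pfkl (0.124), Hif1a (0.0505) and Epas1 (0.126) lost theirs in that fit too. The 6 targets called higher were 4 to 8 over all alternatives, and 5 to 6 when an array was left out. The 1 enzyme called lower was 0 with equal medians, without a trend, with a replicate block, with NHE3-/- array 3 alone, with an Xist covariate and with the mean over probe sets, and 0 to 1 when an array was left out. Over all probe sets, 739 were lower with equal medians, 511 were higher and 558 lower without a trend, 767 were higher with NHE3-/- array 3 alone, and leaving out an array gave 839 to 1211 higher and 775 to 1385 lower (1011 lower without NHE3-/- array 1, 839 higher and 832 lower without NHE3-/- array 3, 843 lower without NHE3+/+ array 2 and 775 lower without NHE3+/+ array 3). Of the other pathway genes, 7 were higher without a filter, 5 higher and 2 lower without a trend, 5 higher with NHE3-/- array 3 alone, and 7 to 10 higher and 1 to 5 lower when an array was left out. The causes were not tested. Deviations from the group means correlated at 0.026, -0.038 and 0.003 between same-numbered arrays. With 3 arrays per genotype these values cannot show whether the numbers mark a pairing, and the labels do not say. With the replicate block 1156 probe sets were higher and 1384 lower (limma), with 8 enzymes and 6 targets higher and Pfkl at an adjusted p of 0.058. Signal over background limits the dim genes Pfkfb3 and P4ha2, whose SEs of 0.24 and 0.30 were the largest of the 29.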
